A study of Mus musculus with 14 samples.

Results

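The genes described here are 10 that handle fatty acids and lipoproteins in the brain: the lipoprotein proteins Apoe and Clu, the fatty acid binding proteins Fabp3, Fabp5 and Fabp7, the desaturases Scd1 and Scd2, the elongase Elovl4, the cholesterol transporter Npc1 and the mitochondrial gate Cpt1a. They were taken by name, and all 10 were present among the 21568 gene symbols of the count tables. The tables come from Drop-seq, a droplet method that tags the 3' end of RNA from single cells with a cell barcode and a unique molecular identifier (UMI). The tissue was punched from the lateral hypothalamic area, a region that helps set feeding, of C57BL/6J mice, all wild-type males. The groups were 7 mice with free access to a high fat diet and 7 control mice on a chow matched to it for taste. All were housed under reversed light. The labels give neither the age of the mice nor the time on the diet. Each library held 1 mouse, and sequencing pool 1 had 4 mice of each diet and pool 2 had 3 of each.

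Neurons make little lipid for export and take up cholesterol and fatty acids that astrocytes load onto lipoproteins with apolipoprotein E. Inside cells, fatty acids travel on small binding proteins, are desaturated and elongated in the endoplasmic reticulum for membranes and myelin, or enter mitochondria through carnitine palmitoyltransferase for oxidation. Cholesterol taken up with lipoproteins leaves the lysosome by way of NPC1, and oligodendrocytes need large amounts of it for myelin.

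Of 28410 barcodes, 15164 were kept as cells after filters and removal of doublets. Total UMIs ran from 147470 to 5611524 per mouse and kept cells from 49 to 1753, and 3 barcodes were shared between libraries. Clusters were named from markers, with the 10 genes kept out of both the markers and the variable genes used for clustering. The cells comprised 6190 neurons, 5373 oligodendrocytes, 913 astrocytes, 641 oligodendrocyte precursors (OPCs), 587 endothelial cells and 447 microglia. In each of the 5 main classes no listed marker of its own was at 0, and its summed markers stood above those in every other main class in every mouse: for microglia 54147 to 62437.5 CPM (counts-per-million units, over all UMIs of the class in a mouse), against at most 459 elsewhere, and for neurons 13564 to 16201 CPM, against at most 6176 elsewhere. The endothelial class also held mural cell markers, at 2717 to 15023 CPM. Neurons were divided into 1984 Slc17a6-high cells, rich in the vesicular glutamate transporter, 3138 Slc32a1-high cells, rich in the vesicular GABA transporter, and 1068 other neurons in neither group, with a median of 877 UMIs per cell. A further 805 cells, called cluster 8, raised 10 of the 12 oligodendrocyte markers, but their 10 leading genes (Klk6, S100b and Aven among them) held none of these and did hold Enpp6, a marker of newly formed oligodendrocytes, so they were left unnamed. Cluster 8 raised 2 newly formed oligodendrocyte markers, and the named oligodendrocyte clusters raised 2, 2 and 1. Its oligodendrocyte markers summed to a median of 149419 CPM, beside 141841 CPM in named oligodendrocytes. Its OPC markers summed to 909 CPM, beside 1276 CPM. The stage of cluster 8 was not tested. Its share of kept cells was 4.46 ± 2.38% in high fat diet mice and 5.46 ± 2.78% in control mice (SD, n = 7 each).

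3 mice stood apart in neuron composition: high fat diet replicate 1 and control replicates 1 and 2, all in pool 1. One neuron subcluster, led by Col25a1 and Slc4a10, made up 15.2 to 27.7% of their neurons and 0 to 2.95% in the other 11 mice. The mice were chosen with earlier results of these data known. Of the 24 neuron subclusters, this one was picked for parting them most from the others, so the gap describes them and tests nothing. Results that rest on these mice are given with and without them.

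The promoters of 3 of the genes are shown because their genes carry the main contrasts below: Fabp3, found mostly in neurons, Fabp7, found mostly in astrocytes and OPCs, and Elovl4, the member whose values did not overlap between the diets in Slc17a6-high neurons. Each sequence runs from 250 bases before to 50 after the RefSeq start of the gene, in GRCm38.p6, 5′ to 3′ on the strand of the gene. RefSeq promoters matched 5 of the 10 genes. In Fabp3 (chr4:130308488-130308787, plus strand) the capitals mark TGACGT. In Fabp7 (chr10:57784673-57784972, plus strand) they mark 2 copies of CCAAT read on the other strand. In Elovl4 (chr9:83806256-83806555, minus strand) they mark 2 copies of GGGCGG on the other strand, which overlap by a base, and CACGTG.
Fabp3: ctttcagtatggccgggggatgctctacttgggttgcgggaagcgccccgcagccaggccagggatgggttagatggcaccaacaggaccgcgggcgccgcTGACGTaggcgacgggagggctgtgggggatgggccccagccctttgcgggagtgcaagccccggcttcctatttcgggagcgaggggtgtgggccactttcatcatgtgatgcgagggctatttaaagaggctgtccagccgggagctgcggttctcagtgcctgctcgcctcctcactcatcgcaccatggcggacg
Fabp7: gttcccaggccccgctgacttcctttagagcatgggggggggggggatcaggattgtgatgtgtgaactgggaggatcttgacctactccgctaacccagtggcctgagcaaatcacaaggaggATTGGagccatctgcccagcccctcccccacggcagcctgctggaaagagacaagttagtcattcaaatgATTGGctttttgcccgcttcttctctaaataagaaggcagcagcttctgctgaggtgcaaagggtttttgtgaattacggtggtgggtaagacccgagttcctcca
Elovl4: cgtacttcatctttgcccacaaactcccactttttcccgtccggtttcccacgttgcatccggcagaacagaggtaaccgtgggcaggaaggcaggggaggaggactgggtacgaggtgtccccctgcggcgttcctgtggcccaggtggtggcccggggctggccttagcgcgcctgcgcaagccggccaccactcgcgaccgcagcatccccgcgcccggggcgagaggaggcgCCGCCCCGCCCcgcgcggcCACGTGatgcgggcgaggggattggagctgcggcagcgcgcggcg
Both strands were searched for each motif over 32851 RefSeq promoters of the same length. TGACGT occurred in 7.51% of them, CCAAT in 37.4%, GGGCGG in 35.7% and CACGTG in 7.15%. TATAAA occurred in 13.6%, ATTTGCAT in 1.74%, the longer TGACGTCA in 1.79% and GTGGGAA in 6.38%. The Elovl4 window also held CCAAT and GTGGGAA once each on the other strand, left in lower case. The direct repeat that PPAR factors can bind (DR1) occurred in 0.0396% and in none of these 3 windows. In GENCODE M21 on GRCm38 the whole genes lie at chr4:130308595-130315463 (Fabp3), chr10:57784881-57788450 (Fabp7) and chr9:83778692-83806277 (Elovl4).

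Levels by class are CPM of all UMIs in the class sum of a mouse, given as mean ± SD over the mice with at least 10 cells of the class, which were 14 for neurons and oligodendrocytes and 12 for astrocytes, microglia and endothelial cells. 5 genes passed the count filter of a single edgeR quasi-likelihood fit over all 5 classes with the mouse as a block, and 44 of their 50 pairwise contrasts had a p under 0.05 after Benjamini-Hochberg adjustment. A gene could meet that filter through a single class, as Fabp7 did through astrocytes, which favours a pass in contrasts with that class. Of all contrasts of the 2433 genes tested, 70.8% passed, so passing is common between these classes. Each of the 5 genes passed for neurons over astrocytes (81.4% of all genes), over oligodendrocytes (86.5%), over microglia (78.5%) and over endothelial cells (81.5%), and for astrocytes over oligodendrocytes (68.2%) and over endothelial cells (63.2%). Of the 5 genes, 4 passed for astrocytes over microglia (60% of all genes) and for oligodendrocytes over endothelial cells (69.1%), and 3 for oligodendrocytes over microglia (65.1%) and microglia over endothelial cells (54.7%). The other 5 genes were compared by an exact two-sided sign-flip permutation test over mice on log2(CPM + 10), with unadjusted p. Under that test 3 of the 44 calls were lost. Fabp7 in neurons was not told apart from its level in microglia (exact p = 0.809, neurons higher in 9 of 12 mice) or endothelial cells (exact p = 0.443, neurons higher in 8 of 12), where it rested on 3 and 4 UMIs. Npc1 in neurons was not told apart from its level in endothelial cells (exact p = 0.0874, neurons higher in 3 of 12).

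**Figure D1:**
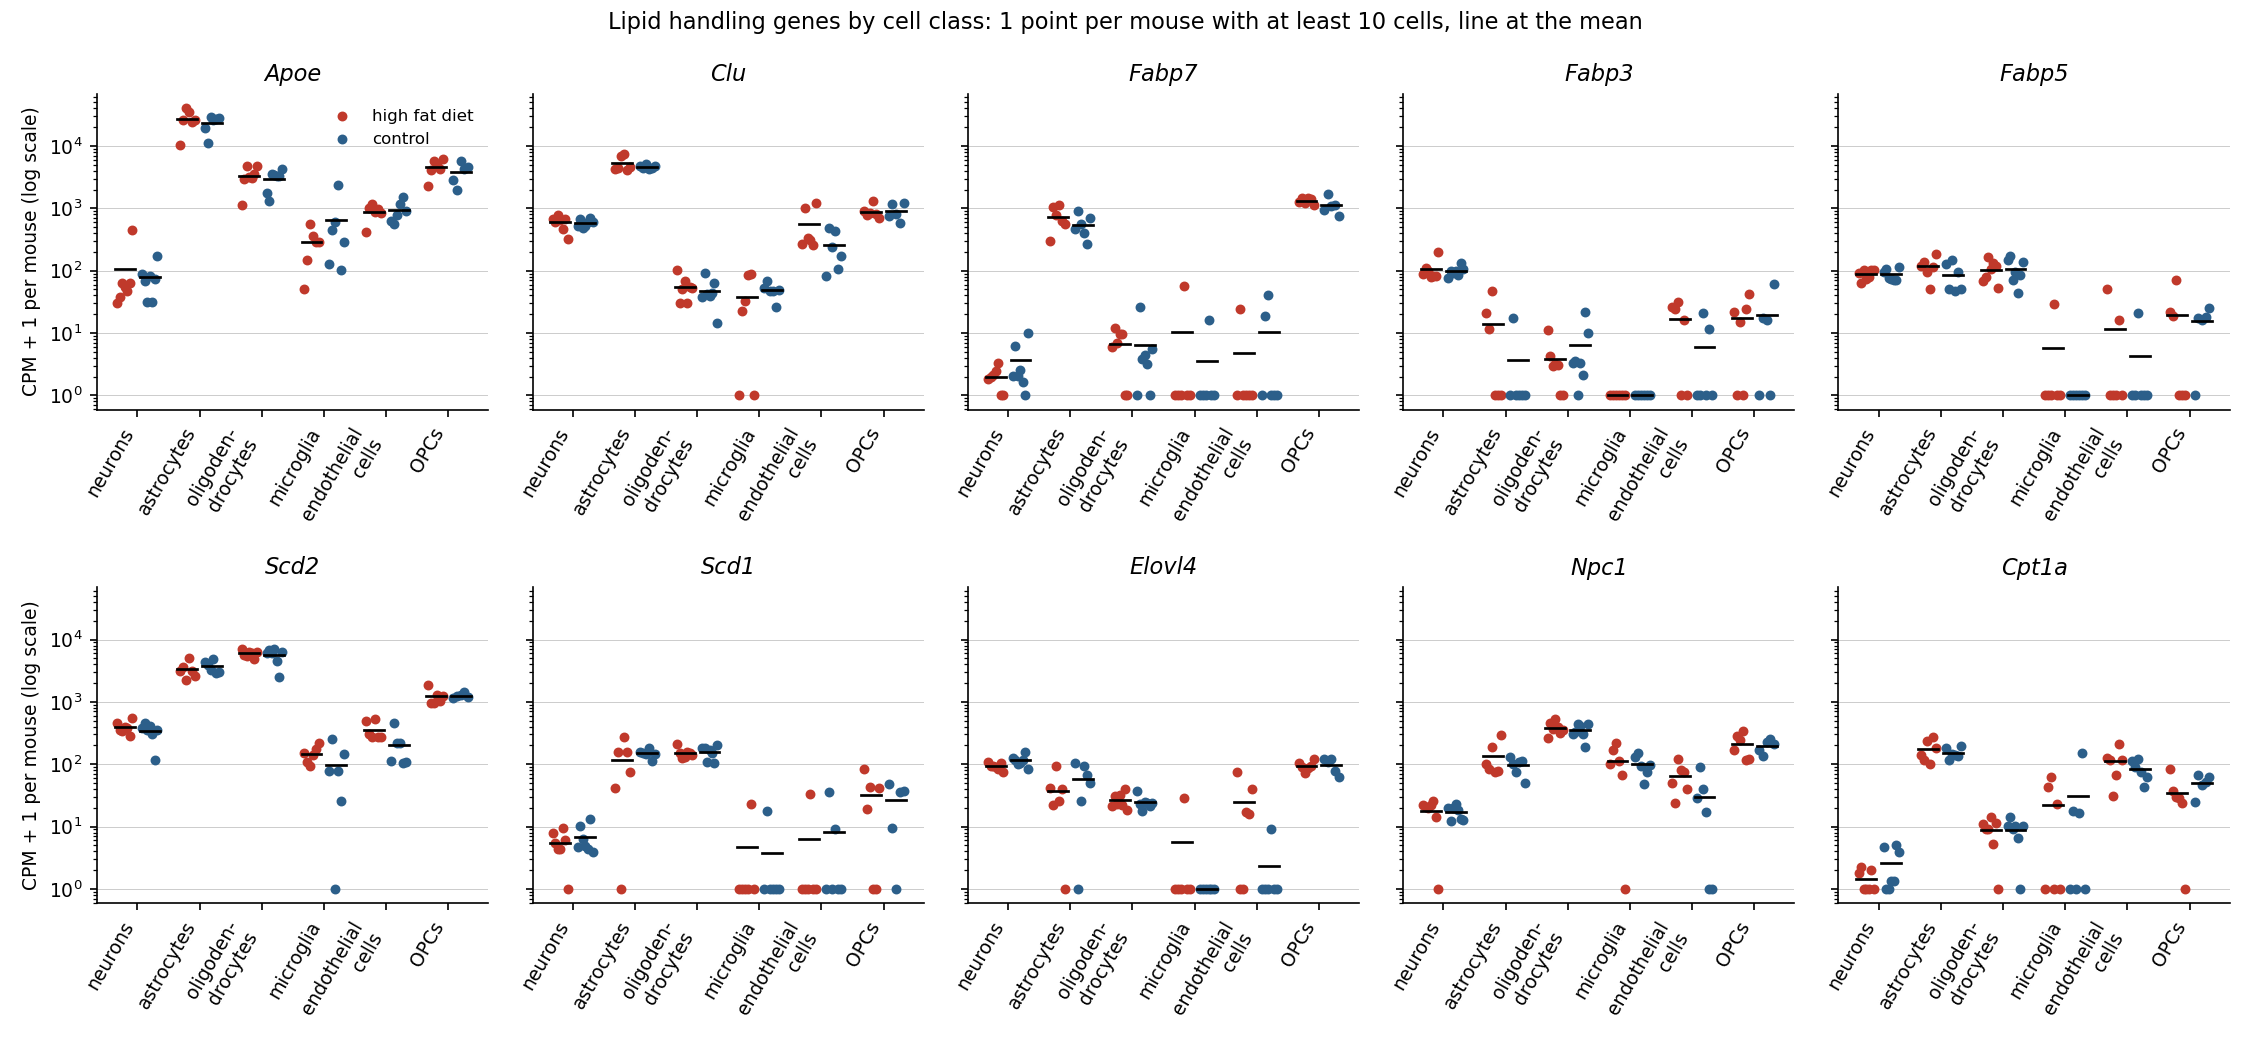
CPM + 1 of each of the 10 genes on a log axis in 6 cell classes, with 1 point per mouse that had at least 10 cells and a black line at the mean of each diet, high fat diet mice to the left of control mice. The diets lie over each other in nearly every panel, while classes differ by orders of magnitude, as for Apoe with 91.6 CPM in neurons and 25407 CPM in astrocytes.

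Apoe, the main lipoprotein of the brain, was an astrocyte transcript first and reached every glial class. It averaged 91.6 ± 109.5 CPM in neurons, 25407 ± 8637 CPM in astrocytes, 3171 ± 1122 CPM in oligodendrocytes, 469 ± 621 CPM in microglia and 900.4 ± 299 CPM in endothelial cells. The neuronal mean was pulled up by high fat diet replicate 7, at 451 CPM from 12 neurons, and the median was 62.7 CPM. A subcluster carrying myelin genes (Mal, Enpp2, Trf) stood at 1314 ± 833 CPM in 3 mice. It held 90 Apoe UMIs, and its part in the neuronal mean was not tested. Slc17a6-high and Slc32a1-high neurons stood at 40.02 ± 19.3 and 43.0 ± 23.8 CPM (n = 13 each), while the other neurons held 448 of the 1413 neuronal Apoe UMIs and averaged 434 ± 655 CPM (n = 13). All pairs of classes passed except microglia over endothelial cells, whose log2 fold change was −0.65 (SE 0.33, edgeR adjusted p = 0.0779). Neurons over astrocytes came to −8.84 on the log2 scale (SE 0.31) and astrocytes over oligodendrocytes to 3.04 (SE 0.24). With every cell thinned to 500 UMIs, 99.1% of astrocytes and 68.4% of oligodendrocytes held an Apoe UMI, beside 2.46% of Slc17a6-high neurons. Without thinning the shares were 99.2%, 84.6% and 16.6%. The median cell had 676, 1041 and 4167 UMIs in those classes before thinning.

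Clu, or clusterin, a chaperone also called apolipoprotein J, shared the astrocyte peak but not the order of the rest. It averaged 592 ± 118 CPM in neurons, 4984 ± 1038 CPM in astrocytes, 50.5 ± 23.8 CPM in oligodendrocytes, 42.4 ± 28.8 CPM in microglia and 409 ± 349 CPM in endothelial cells. Neurons exceeded oligodendrocytes by 3.30 on the log2 scale (SE 0.18) for Clu, while for Apoe the same contrast was −5.80 (SE 0.28). The pair thus had opposite signs in this contrast. The contrast of oligodendrocytes over microglia for Clu did not pass, at 0.02 (SE 0.55).

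The binding proteins each took a different set of classes. Fabp7, known as the brain type and a marker of glial progenitors, averaged 1.8 ± 2.4 CPM in neurons, 641 ± 277 CPM in astrocytes and 5.5 ± 6.6 CPM in oligodendrocytes. Only 3 Fabp7 UMIs were counted in microglia and 4 in endothelial cells. Neurons over astrocytes stood at −8.71 (SE 0.23) and astrocytes over oligodendrocytes at 6.397 (SE 0.22) for Fabp7, both past the threshold. Fabp7 met the count filter of that fit through astrocytes, the only main class where it was high. A pass against astrocytes was thus favoured in advance, and the values serve as description.

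Fabp3, the heart type, was a neuronal transcript, with 101 ± 31.97 CPM in neurons, 7.8 ± 14.2 CPM in astrocytes, 4.1 ± 5.7 CPM in oligodendrocytes and 10.3 ± 11.8 CPM in endothelial cells. The values outside neurons rested on 4 UMIs in astrocytes, 18 in oligodendrocytes and 6 in endothelial cells. Fabp3 was higher in neurons than in astrocytes in 12 of 12 mice and than in oligodendrocytes in 14 of 14 mice (exact p = 0.000488 and 0.000122, the smallest that these numbers of mice allow). No Fabp3 UMI was seen in microglia, where 3 counts over the 440221 UMIs of the class would be 6.81 CPM.

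Fabp5, the epidermal type, was spread evenly over 3 classes, with 86.5 ± 17.1 CPM in neurons, 101 ± 45.1 CPM in astrocytes and 104 ± 41.5 CPM in oligodendrocytes. Neurons were higher than astrocytes in 5 of 12 mice for Fabp5 (exact p = 0.647) and than oligodendrocytes in 4 of 14 (exact p = 0.207). The difference of neurons over astrocytes was −0.09 (SE 0.21) on the log2(CPM + 10) scale. Fabp5 was nearly absent from microglia, with 1 UMI, and from endothelial cells, with 4. Fabp3 and Fabp5 have close pseudogene copies, and how reads shared with a copy were counted is not given in the sources used here.

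Scd2 and Scd1, which put the first double bond into saturated fatty acids, were highest in oligodendrocytes and astrocytes. Scd2 averaged 366 ± 100.2 CPM in neurons, 3513 ± 889 CPM in astrocytes, 5791 ± 1183 CPM in oligodendrocytes, 121 ± 73.6 CPM in microglia and 279.7 ± 148 CPM in endothelial cells. All 10 of its contrasts passed, with astrocytes over oligodendrocytes at −0.88 (SE 0.11) and oligodendrocytes over microglia at 5.62 (SE 0.18). Scd1 averaged 5.1 ± 3.1 CPM in neurons, 132 ± 69.9 CPM in astrocytes and 153 ± 31.4 CPM in oligodendrocytes, and gave 2 UMIs in microglia and 5 in endothelial cells. Scd1 in astrocytes was above oligodendrocytes in 4 of 12 mice (exact p = 0.171), while neurons were below oligodendrocytes in 14 of 14 (exact p = 0.000122).

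Elovl4, which makes very long chain fatty acids, was higher in neurons than in the other main classes. It averaged 103 ± 20.6 CPM in neurons, 46.0 ± 35.5 CPM in astrocytes, 24.7 ± 6.7 CPM in oligodendrocytes and 12.7 ± 22.6 CPM in endothelial cells, and microglia gave 1 UMI. Neurons exceeded astrocytes in 12 of 12 mice and oligodendrocytes in 14 of 14 for Elovl4 (exact p = 0.000488 and 0.000122). Astrocytes over oligodendrocytes did not separate, at 0.32 (SE 0.36) on the log2(CPM + 10) scale (exact p = 0.396).

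Npc1, which exports cholesterol from lysosomes, averaged 16.5 ± 6.2 CPM in neurons, 115 ± 65.8 CPM in astrocytes, 363 ± 87.5 CPM in oligodendrocytes, 104 ± 57.9 CPM in microglia and 46.6 ± 37.7 CPM in endothelial cells. Neurons over oligodendrocytes came to −4.57 (SE 0.09) for Npc1, and astrocytes over microglia did not pass, at −0.16 (SE 0.31). Cpt1a, the step that commits fatty acids to mitochondrial oxidation, had a pattern of its own. It averaged 1.0 ± 1.5 CPM in neurons, 162 ± 51.2 CPM in astrocytes, 7.7 ± 4.0 CPM in oligodendrocytes, 25.7 ± 43.9 CPM in microglia and 96.0 ± 47.7 CPM in endothelial cells. Cpt1a in neurons amounted to 19 UMIs over all mice and was below astrocytes in 12 of 12 and below endothelial cells in 12 of 12 (exact p = 0.000488 for each). Astrocytes exceeded endothelial cells in 11 of 12 mice for Cpt1a (exact p = 0.000977).

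The genes split along the oligodendrocyte lineage as well. OPCs divide and mature into myelinating oligodendrocytes, and 8 of the 10 genes differed between the stages in the same direction in all 11 mice with at least 10 cells of each. Among all genes with at least 27 UMIs in these cells, as each member had, 20.7% did so, and of genes with at least 500 UMIs, 40% did, beside 7 of 7 members. OPCs were above oligodendrocytes in 11 of 11 mice for Fabp7, with 1232 ± 272 and 6.6 ± 7.0 CPM, for Clu, with 897 ± 226 and 52.7 ± 24.0 CPM, for Elovl4, with 95.4 ± 21.0 and 25.9 ± 7.0 CPM, and for Apoe, with 4283 ± 1411 and 2913 ± 1086 CPM. They were below in 11 of 11 for Scd2, with 1239.6 ± 258 and 6012 ± 806 CPM, for Scd1, with 28.3 ± 25.9 and 155 ± 28.2 CPM, for Npc1, with 205 ± 71.3 and 373 ± 78.1 CPM, and for Fabp5, with 16.6 ± 20.3 and 108 ± 42.5 CPM. Fabp3 and Cpt1a were the exceptions, with Cpt1a higher in OPCs in 10 of 11. Fabp7 was also higher in OPCs than in astrocytes in 11 of 11 mice, by a median of 2.03-fold. Of all genes with at least 16 UMIs in OPCs and astrocytes 8.27% were so, and of those with at least 500 UMIs 28.8%. Apoe, Clu, Fabp5, Scd2 and Cpt1a, 5 of 10 members, were lower in OPCs than in astrocytes in 11 of 11. Of all genes 4.42% and 30.6% were so at those 2 limits. OPCs were not among the classes chosen for tests, so these are counts without a p.

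Cluster 8 matched the named oligodendrocytes in some of these genes and not in others. Apoe was lower in cluster 8 in 12 of 12 mice, with 940.1 ± 353 CPM, against 3023 ± 1104 CPM in oligodendrocytes of the same mice, and the ratio ran from 0.21 to 0.52. Elovl4 was also lower in 12 of 12, with 9.1 ± 7.8 and 25.6 ± 6.8 CPM, but rested on 16 UMIs in cluster 8. Scd1 was lower in 12 of 12 too, with 126 ± 36.05 and 158 ± 29.8 CPM and ratios from 0.54 to 0.95. Scd2 was lower in 11 of 12, by less, and stood at 5838 ± 811 CPM in cluster 8 and 6031 ± 771 CPM in oligodendrocytes, with ratios from 0.82 to 1.01. Of all genes with at least 18 UMIs in these cells, as each member had, 2.65% were lower in cluster 8 in every mouse, beside 3 of 10 members, and of genes with at least 500 UMIs 6.54% were, beside 2 of 5. The cluster was singled out after its values were seen and no test was made.

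**Figure D2:**
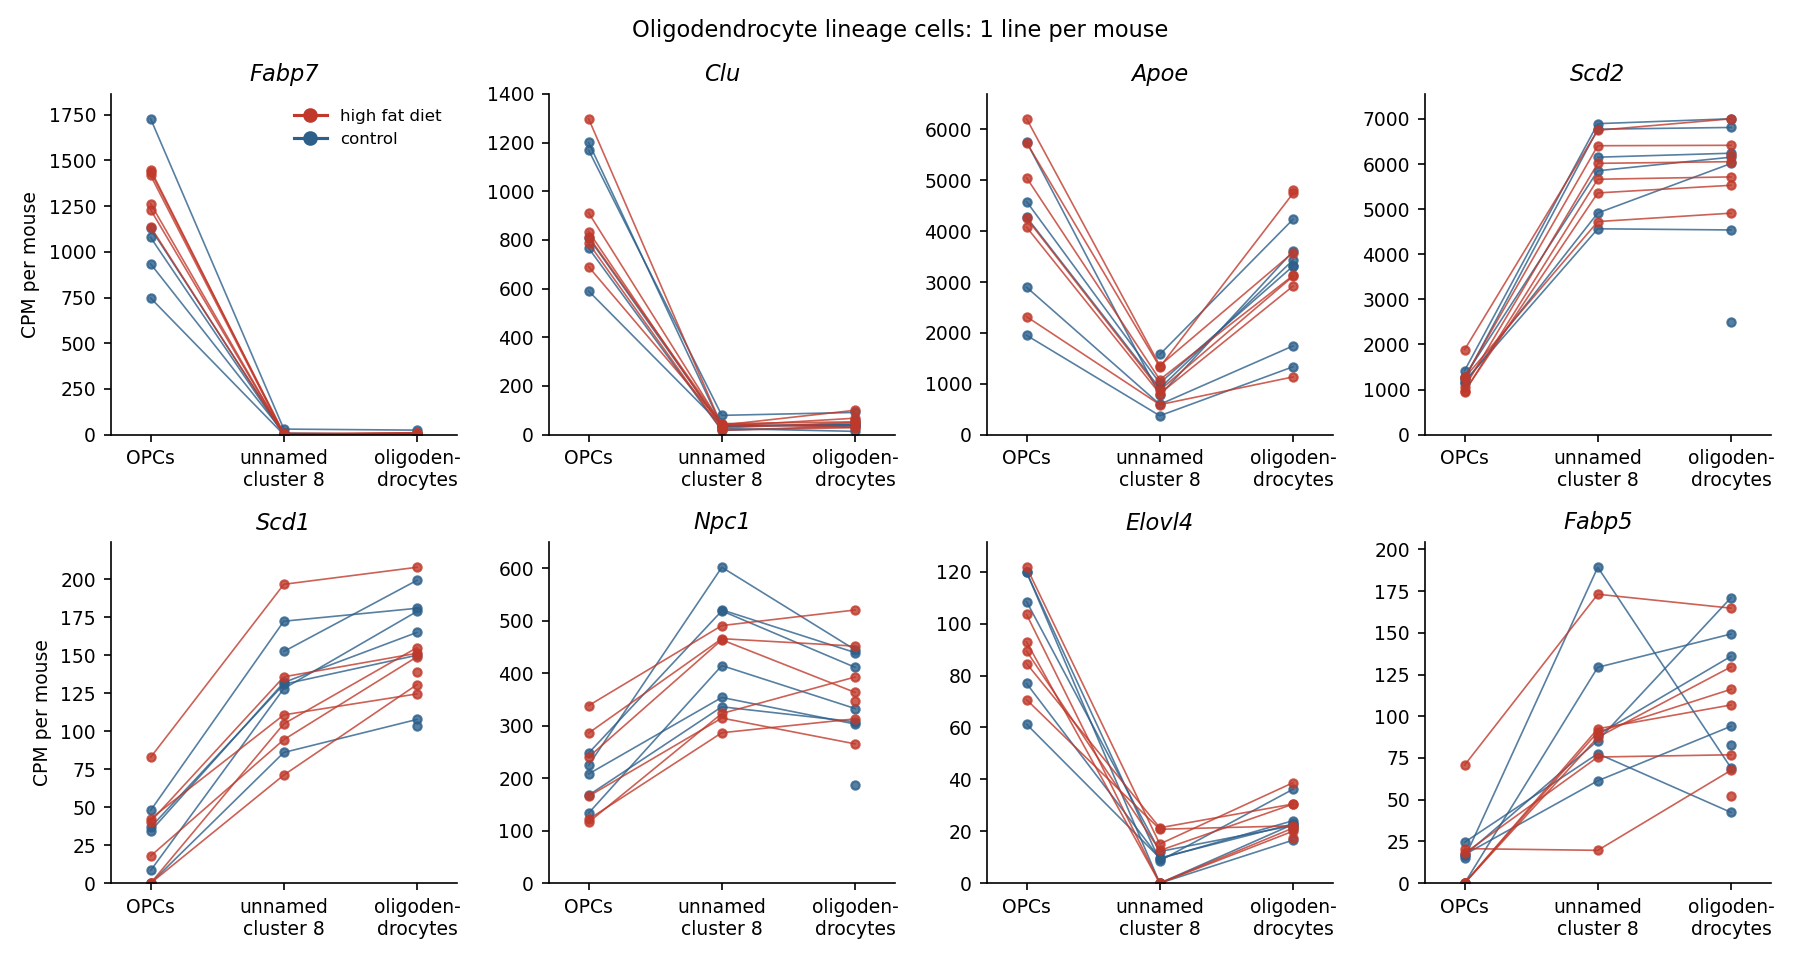
CPM of 8 genes in OPCs, in cluster 8 and in named oligodendrocytes, with 1 line per mouse coloured by diet and each panel on its own axis from 0. The place of cluster 8 between the other groups marks no stage. Fabp7, Clu and Elovl4 are high in OPCs and low in both other groups, Scd2 is the reverse, and Apoe is lowest in cluster 8 in every mouse that has it.

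Within neurons, Clu was highest in the subcluster led by Hcrt, the gene of the wake-promoting peptide hypocretin, at 1222 ± 331 CPM over 6 mice. Mean Clu in the other 17 neuron subclusters with at least 10 cells in 3 or more mice ran from 357 to 947 CPM. In 5 of those 6 mice the Hcrt subcluster was above every other subcluster of the same mouse with 10 cells, and in high fat diet replicate 3 it was above 17 of 18. The other genes were not singled out this way, and no test was made of this rank.

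By correlation of log2(CPM + 10) over 64 sums of class and mouse, among 8245 genes, the nearest genes to each member were as follows. Mt1 (r = 0.94), Ppap2b and Htra1 were nearest to Apoe, and Tmem47 (r = 0.95), Atp1b2 and Nrcam to Clu. Cldn10 (r = 0.97), Acsbg1 and Gm3764 were nearest to Fabp7, Stxbp5l (r = 0.92), Celf6 and Bex2 to Fabp3, and Ank2 (r = 0.88), Ncam2 and Phyhipl to Fabp5. Cmtm5 (r = 0.92), Sox2ot and Gpm6b were nearest to Scd2, and Tmem229a (r = 0.92), Cmtm5 and Megf10 to Scd1. Nova1 (r = 0.86), Dner and Nudt11 were nearest to Elovl4, Tsc22d4 (r = 0.82), Cnp and Sirt2 to Npc1, and Mfge8 (r = 0.88) and Jam2 to Cpt1a. The sums of a mouse share its library, and the correlations describe the classes rather than the diets.

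Apoe varied between mice more by the set of 3 mice that stood apart than by diet. In oligodendrocytes Apoe ran from 1135 through a median of 3129 to 4808 CPM in high fat diet mice, and from 1334 through 3314 to 4232 CPM in control mice. The lowest were the 3 mice, at 1135 CPM in high fat diet replicate 1 and 1744 and 1334 CPM in control replicates 1 and 2, and the other 11 lay between 2920 and 4808 CPM. The diets overlapped, and the log2 fold change of high fat diet over control was 0.15 (SE 0.31) with all mice and −0.00048 (SE 0.13) without the 3.

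The same 3 mice had the lowest Apoe in 4 further groups of cells. Apoe stood at 10452 to 19791 CPM in their astrocytes, against 23986 to 40888 CPM in the other 9 mice. It stood at 420.0 to 629 CPM in their endothelial cells, against 768 to 1521 CPM, at 1953 to 2898 CPM in their OPCs, against 4078 to 6208 CPM, and at 372 to 595 CPM in cluster 8, against 774 to 1576 CPM. In neurons and microglia the 3 mice overlapped the others. Scd2 in Slc32a1-high neurons went the other way, at 409 to 483 CPM in the 3 mice, against 131 to 399 CPM in the other 10. In those neurons 4.69% of genes with at least 500 UMIs were higher in all 3 mice than in every other mouse, and 9.2% were lower. Of genes with at least 500 UMIs, 9.50% in oligodendrocytes and 2.36% in astrocytes were lower in all 3 than in every other mouse. That share was not computed for endothelial cells, OPCs or cluster 8, so the separations there are not set against all genes. The other pool 1 mice lay with pool 2 for Apoe, and what sets the 3 mice apart was not tested. Without them the astrocyte log2 fold change for diet was 0.13 (SE 0.14), against 0.19 (SE 0.32) with them.

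**Figure D3:**
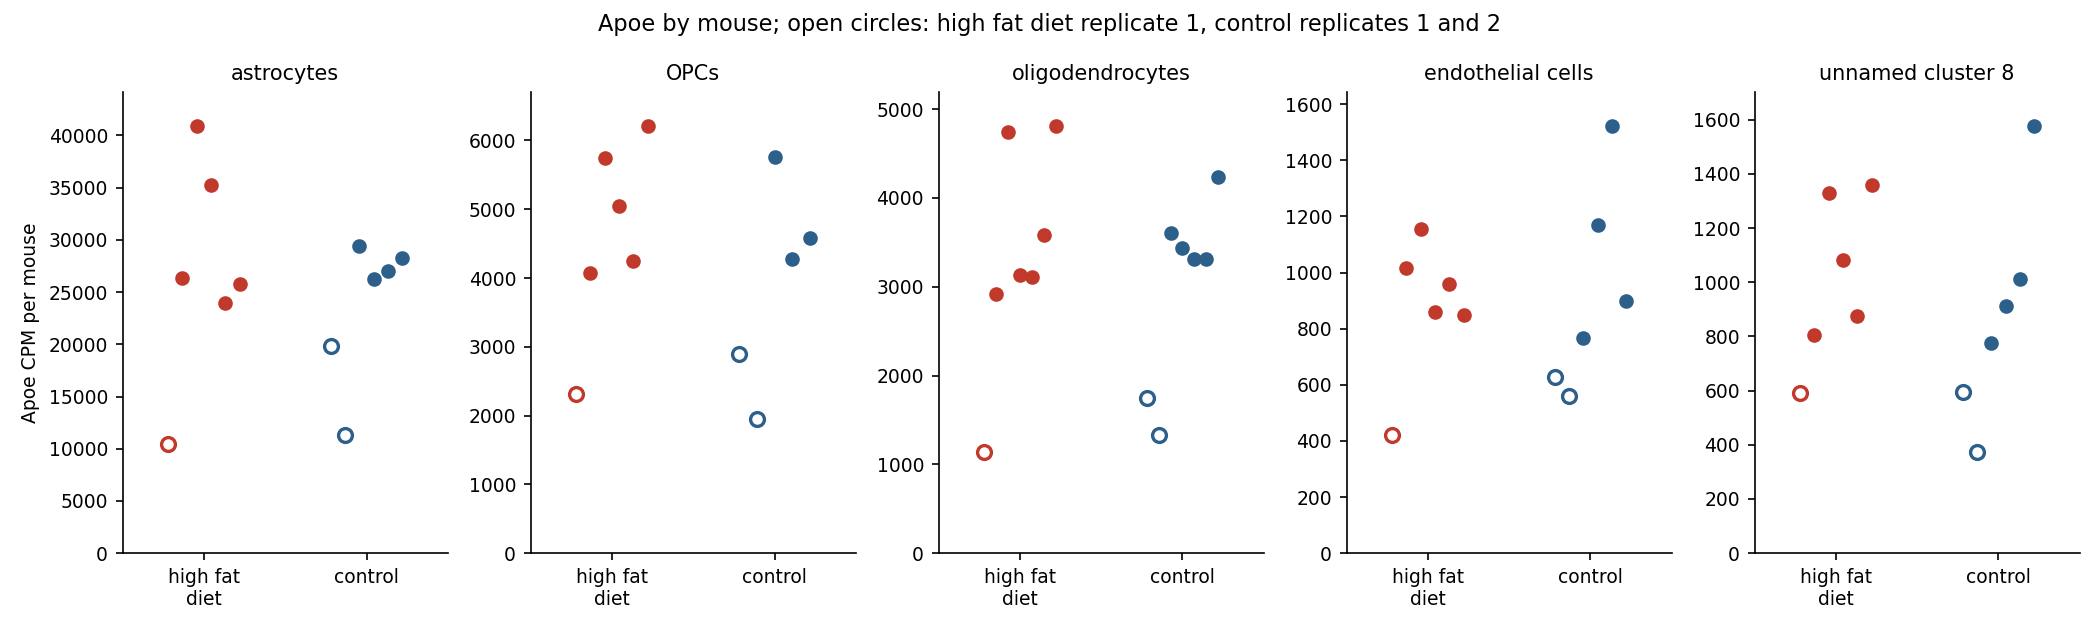
Apoe CPM per mouse in 5 groups of cells, with high fat diet mice in red on the left and control mice in blue on the right of each panel, each on its own axis from 0. The open circles, high fat diet replicate 1 and control replicates 1 and 2, lie below all filled circles in every panel, while the diets overlap.

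The comparison of diets asked which of these genes changed in which cells when mice ate a high fat diet. None did at an adjusted p under 0.05. By edgeR, 0 of the 36 tests of a member in a cell group passed, in 7 groups that include Slc17a6-high and Slc32a1-high neurons. 7 members passed the count filter in neurons, in either neuron group and in oligodendrocytes, 4 in astrocytes (Apoe, Clu, Fabp7, Scd2), 3 in endothelial cells (Apoe, Clu, Scd2) and 1 in microglia (Apoe). Over all genes the share passing was 0% in each group, of 10383 genes in neurons, 674 in astrocytes, 5387 in oligodendrocytes, 523 in microglia, 1097 in endothelial cells, 8576 in Slc17a6-high and 9515 in Slc32a1-high neurons. DESeq2 called no member either, and 0 genes in neurons, astrocytes, oligodendrocytes, microglia and Slc17a6-high neurons, 10 in endothelial cells and 2 in Slc32a1-high neurons. At an unadjusted edgeR p under 0.05 there were 123 genes in neurons, 24 in astrocytes, 116 in oligodendrocytes, 16 in microglia, 109 in endothelial cells, 114 in Slc17a6-high and 156 in Slc32a1-high neurons. 3 of the 36 tests had an unadjusted edgeR p under 0.05: Elovl4 in Slc17a6-high neurons, Scd2 in endothelial cells and Fabp7 in astrocytes.

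**Figure D4:**
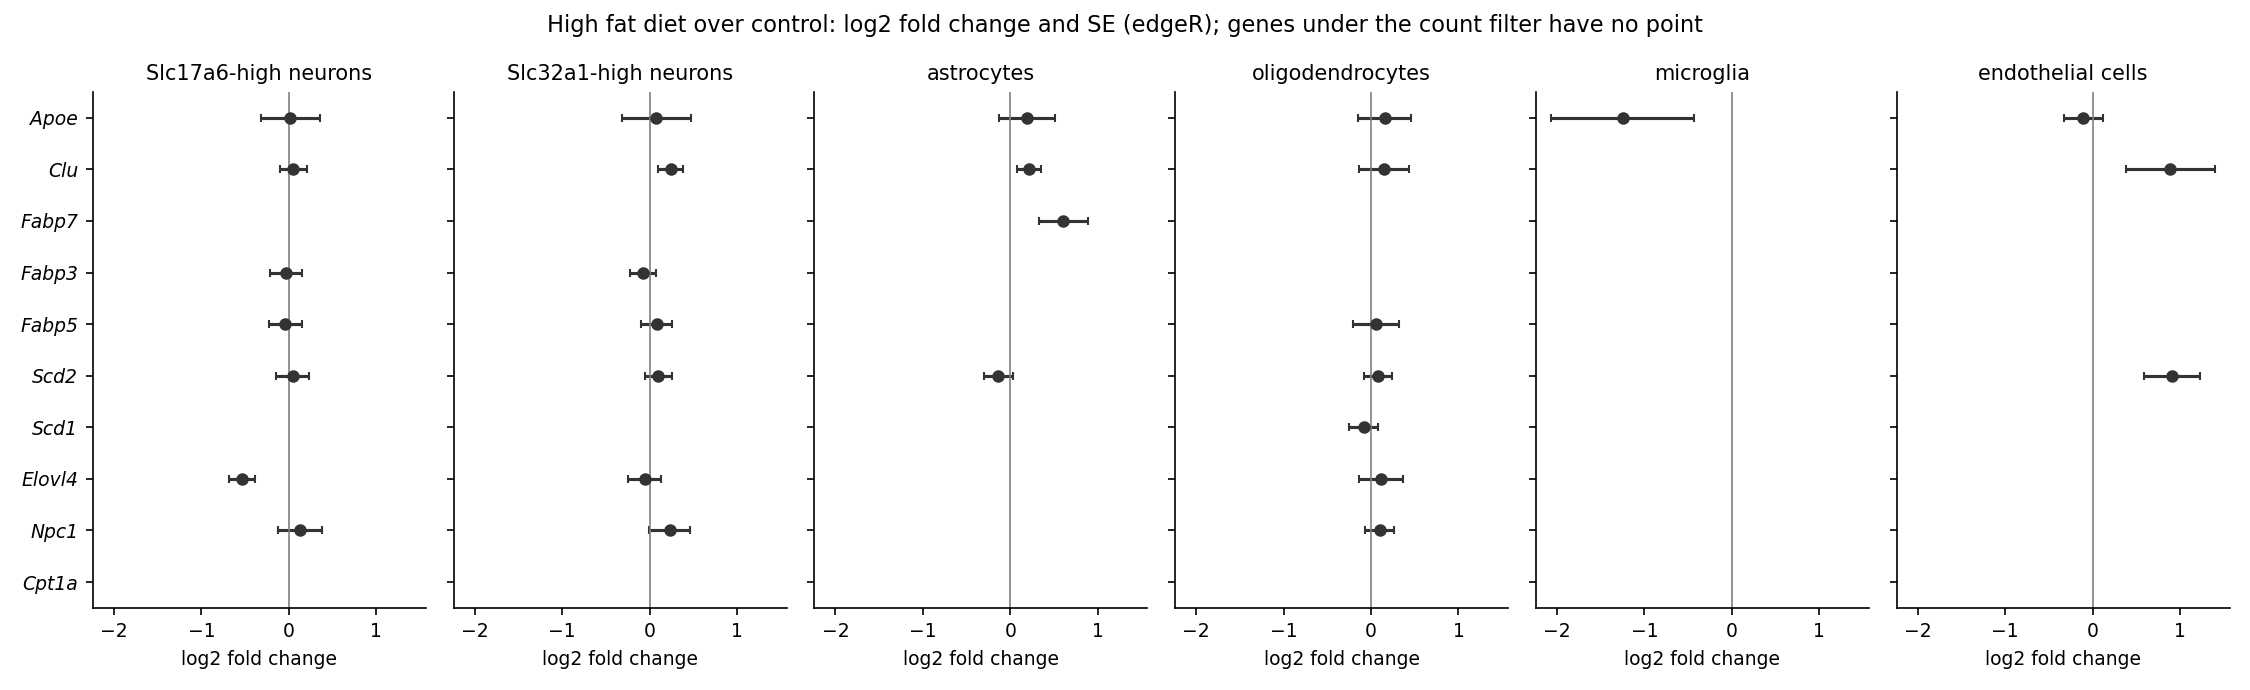
Log2 fold change of high fat diet over control with its SE (bars) from edgeR for each gene, in 6 groups of cells. Most points lie within an SE or so of 0, and the widest bar is that of Apoe in microglia, −1.25 with an SE of 0.82.

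Elovl4 in Slc17a6-high neurons was the only one of these 36 whose diets did not overlap. It ran from 70.3 through a median of 77.8 to 94.1 CPM in 6 high fat diet mice and from 97.7 through 122 to 141 CPM in 7 control mice. Every high fat diet mouse was below every control mouse. The means were 79.6 ± 7.9 and 119 ± 15.8 CPM, and the log2 fold change was −0.53 (SE 0.15, edgeR adjusted p = 0.9999). It was −0.41 (SE 0.23) in pool 1 and −0.66 (SE 0.21) in pool 2, and −0.58 (SE 0.16) without the 3 mice. Diets that did not overlap were found for 0.0466% of genes in Slc17a6-high neurons, 0.0631% in Slc32a1-high neurons, 0.0193% in all neurons, 0.148% in astrocytes, 0.0557% in oligodendrocytes, 0.191% in microglia and 0.365% in endothelial cells. With the high fat diet lower, the shares were 0.021% in Slc32a1-high neurons and 0.00963% in all neurons. Such a separation with the high fat diet lower held for 2 of the 8576 genes tested there, 0.0233%, the other being the pseudogene Rps26-ps1, named after its values were seen. An earlier account of these data had already picked out Elovl4 in these neurons, so its values describe these mice and are no independent evidence.

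The lower Elovl4 was seen in each larger Slc17a6-high subcluster. In the 4 subclusters with at least 3 mice of each diet the high fat diet mean was the lower one in 4 of 4. These subclusters hold the same cells as the values above and are no separate evidence. The subcluster led by Mab21l1 and Tbr1 had 100.4 ± 34.1 CPM of Elovl4 in high fat diet mice (n = 6) and 160.4 ± 31.4 CPM in control mice (n = 4), and that led by Dmrta2 and Tcf7l2 had 72.1 ± 26.7 and 124 ± 17.7 CPM. The subclusters led by Otp and As3mt, with 79.0 ± 26.9 and 103 ± 9.3 CPM, and by Trh and Adcyap1, with 80.4 ± 23.4 and 114 ± 44.8 CPM, differed by about the spread between mice.

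In Slc32a1-high neurons Elovl4 ran from 86.4 through 104 to 120.4 CPM in high fat diet mice and from 28.7 through 114 to 151 CPM in control mice, and the diets overlapped fully. The log2 fold change there was −0.05 (SE 0.19), and −0.15 (SE 0.15) in mice with at least 20 of these cells. It was 0.07 (SE 0.18) without the 3 mice that stood apart, 0.05 (SE 0.32) in pool 1 and −0.13 (SE 0.19) in pool 2. Their subclusters with at least 3 mice of each diet went both ways. The high fat diet mean was the lower in those led by Ddc, Gal, Pax6 and Nfib. It was the higher in those led by Col25a1, Icam5 and Prdm12. The Ddc subcluster, the largest, had 90.6 ± 13.7 and 110 ± 18.1 CPM, and the Icam5 subcluster 123 ± 54.1 and 99.3 ± 25.3 CPM. The difference between the diet effects of Slc17a6-high and Slc32a1-high neurons, with the mouse as a block, was −0.40 (SE 0.15) on the log2 scale for Elovl4 (edgeR adjusted p = 0.9999). 0 of the 7 members tested and 1 of 9345 genes (0.0107%) passed this interaction test, with 339 genes at an unadjusted p under 0.05. That gene was Ecel1, a peptidase gene, at −1.36 (SE 0.23, adjusted p = 0.0025), named after its value was seen.

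**Figure D5:**
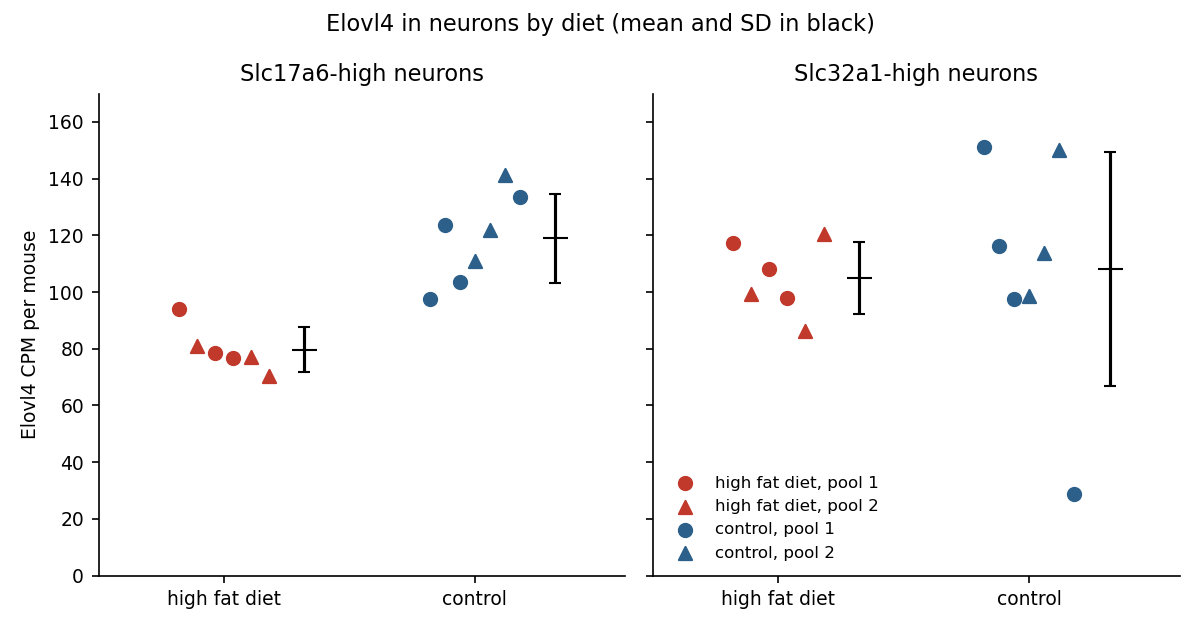
Elovl4 CPM per mouse in Slc17a6-high and Slc32a1-high neurons, high fat diet left and control right, with circles for sequencing pool 1, triangles for pool 2 and the mean ± SD in black. In Slc17a6-high neurons the 6 high fat diet mice all lie at or below 94.1 CPM and the 7 control mice at or above 97.7 CPM.

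Scd2 in endothelial cells was higher on the high fat diet without passing. It ran from 269 through 287 to 535 CPM in high fat diet mice and from 104 through 163 to 455 CPM in control mice (n = 6 each). Control replicate 2 alone lay among the high fat diet values, and the other 5 control mice were below all 6. The log2 fold change of Scd2 was 0.91 (SE 0.32, edgeR adjusted p = 0.274), with 0.46 when doublets were kept and 1.598 in cells of at least 1000 UMIs. Clu there ran from 254 through 321 to 1198 CPM in high fat diet mice and from 82.1 through 203 to 490.2 CPM in control mice (log2 fold change 0.89, SE 0.51, adjusted p = 0.604). The highest were high fat diet replicates 2 and 6, at 1017 and 1198 CPM, and the diets overlapped. Its log2 fold change was 0.31 in pool 1 alone and 1.41 in pool 2 alone, and lay between 0.54 (without control replicate 5) and 1.25 (without control replicate 2) when a mouse was left out. The endothelial sums also differed in the markers of other cells. Neuron markers summed to 1391 to 6176 CPM in high fat diet mice and 433 to 1576 CPM in control mice, with 0 of 12 at 0. Oligodendrocyte markers summed to 1040 to 16126 and 847 to 8597 CPM, also with 0 of 12 at 0. Scd2 averaged 5791 CPM in oligodendrocytes. The highest endothelial Scd2, at 535, 494 and 455 CPM, was in high fat diet replicates 4 and 1 and control replicate 2. Their oligodendrocyte markers stood at 16126, 7065 and 8597 CPM. High fat diet replicate 3 had 7605 CPM of these markers with 274 CPM of Scd2, and replicate 2 had 1040 with 300 CPM. The part of RNA from other cells in the Scd2 difference was not tested, and 9.94% of all genes tested in endothelial cells had an unadjusted p under 0.05.

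Fabp7 in astrocytes ran from 299.8 through 702.05 to 1115 CPM in high fat diet mice and from 265 through 509.8 to 901 CPM in control mice, and the diets overlapped. Its log2 fold change was 0.61 (SE 0.28, edgeR adjusted p = 0.966). The pools differed. In pool 1 Fabp7 changed by 0.09 (SE 0.37), and in pool 2 by 1.17 (SE 0.26, adjusted p = 0.0445), where high fat diet mice had 1045, 616 and 549.7 CPM and the 2 control mice with 10 astrocytes had 404 and 265 CPM. In pool 2 alone 1 of 2256 astrocyte genes passed, which was Fabp7, and 104 had an unadjusted edgeR p under 0.05. Without the 3 mice apart, which are all in pool 1, the Fabp7 log2 fold change was 1.00 (SE 0.25, adjusted p = 0.187).

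Apoe in microglia, the class where it is known to rise with activation, ran from 49.1 through 287 to 560.0 CPM in high fat diet mice and from 99.8 through 372 to 2361 CPM in control mice. The diets overlapped, and the log2 fold change of −1.25 (SE 0.82, adjusted p = 0.940) rested on control replicate 4, without which it was 0.24. In pool 1 alone it was 0.0039 (SE 0.48) and in pool 2 alone, which holds that mouse, −2.54 (SE 1.55). In that mouse 106 of 153 Apoe UMIs came from a single cell and 141 from 5 of its 62 microglia. Without those 5 cells the mouse had 207 CPM. The 5 cells had microglia markers at 56604 CPM, against 55318 CPM in its other microglia, and the perivascular macrophage markers were at 0 in both. Oligodendrocyte markers stood at 1474 CPM in the 5 cells, from 10 UMIs, and at 862 CPM in the others, and astrocyte markers at 295 CPM, from 2 UMIs, and 414 CPM. Their part in the Apoe value was not tested.

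In oligodendrocytes, where the desaturases and Npc1 are highest, no member differed by more than its error. Scd2 averaged 5974 ± 671 CPM in high fat diet mice and 5608 ± 1582 CPM in control mice (log2 fold change 0.08, SE 0.16), Scd1 151 ± 27.4 and 155 ± 37.0 CPM (−0.08, SE 0.17), and Npc1 379 ± 85.7 and 347 ± 92.9 CPM (0.10, SE 0.17). Neurons as a whole gave 0.12 (SE 0.17) for Scd2, 0.18 (SE 0.20) for Npc1, 0.05 (SE 0.16) for Clu, −0.04 (SE 0.15) for Fabp3, 0.02 (SE 0.15) for Fabp5 and −0.27 (SE 0.14) for Elovl4. Scd1 and Cpt1a were tested in at most 1 class for diet. Cpt1a passed the filter in none, and averaged 173 ± 67.5 CPM in high fat diet astrocytes and 151 ± 30.5 CPM in control astrocytes.

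The wider lipid pathways did not pass either. 7 further lists cover lipoprotein receptors and lipid export, fatty acid uptake, synthesis, oxidation, lysosomal lipid handling, lipid droplets, and the PPAR and LXR regulators with their targets. No gene of any list passed in any of the 7 cell groups. In Slc17a6-high neurons 3 of 11 lipoprotein receptor and export genes were on the higher side and 8 on the lower, with a median log2 fold change of −0.14, beside 0.0030 over all genes. In Slc32a1-high neurons 12 of 15 fatty acid oxidation genes were on the higher side and 3 on the lower, with a median of 0.12, beside −0.00018 over all genes. In oligodendrocytes 8 of 11 genes of synthesis, elongation and desaturation were on the higher side and 3 on the lower (median 0.05, beside 0.0011). These are a selection from all lists and cell groups, and the counts were not tested. The oxidation list had 7 genes higher and 8 lower in Slc17a6-high neurons (median −0.0026) and the same counts in oligodendrocytes (−0.013). It had 11 higher and 6 lower in all neurons (0.030), 3 and 0 in astrocytes (0.41) and 2 and 1 in endothelial cells (0.39). The share of all genes on the higher side was not computed.

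The single list genes with the smallest p were as follows. In endothelial cells Tecr, a reductase of fatty acid elongation, had 358 ± 191 CPM in high fat diet mice and 129.5 ± 88.3 CPM in control mice (log2 fold change 1.42, SE 0.36, edgeR adjusted p = 0.118). Tecr averaged 1192 ± 198 CPM in neurons, and the pair of endothelial sums with the highest neuron markers, at 6176 and 3894 CPM in high fat diet replicates 1 and 3, had the highest Tecr, at 692 and 456 CPM. The part of neuronal RNA in this difference was not tested. In oligodendrocytes Fasn, the fatty acid synthase, had 141 ± 36.1 and 86.7 ± 47.4 CPM (0.43, SE 0.21), and Dgat2, which makes triglyceride, 45.4 ± 19.3 and 29.3 ± 20.2 CPM (0.62, SE 0.29). In Slc17a6-high neurons Acadvl, which oxidises very long chain fatty acids, had 49.1 ± 10.6 and 33.5 ± 12.0 CPM (0.47, SE 0.21), and Galc, the lysosomal galactosylceramidase, 12.2 ± 5.5 and 18.1 ± 4.9 CPM (−0.49, SE 0.29). The others, Slc27a3, Mgll, Lrp8 and Rxrb in Slc32a1-high neurons, Apoo in Slc17a6-high neurons, Dbi in neurons, Gm2a in astrocytes and Scap in oligodendrocytes, had log2 fold changes from −0.26 to 0.67. Outside endothelial cells the adjusted p was at least 0.966 for each.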

How the data were processed

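The authors deposited UMI counts per gene and cell barcode as raw whole numbers, 1 table per mouse. The submitters' processing notes name Picard 2.2.4, STAR 2.4.2a and bcl2fastq 2.18.0.12, and the build mm10 (GRCm38). Neither the UMI counter nor its annotation is given in the sources used here.

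Barcodes with at least 500 UMIs, 300 genes and at most 20% mitochondrial UMIs were kept. Scrublet (scanpy 1.11.5) marked 214 doublets (1.39%) in the 11 mice with at least 300 cells, at an expected rate of 5%. Cells were clustered on 2000 variable genes, 30 components and 15 neighbours (leidenalg 0.10.2, resolution 1). A cluster took a class name when at least 3 markers were raised 1.5-fold and seen in 10% of its cells, and more than for any other class. It was left unnamed where its 10 leading genes held more markers of another class than of its own. It was also left unnamed where its cells had few UMIs for their mice and those genes held none of its own markers. A neuron subcluster was Slc17a6-high or Slc32a1-high when that gene had at least 4 times the UMIs of the other.

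Counts were summed per class and mouse with at least 10 cells. Diet was tested with edgeR 4.0.16 (R 4.3.3; TMM, filterByExpr, robust quasi-likelihood F test, sequencing pool as covariate) and DESeq2 1.42.0 as an alternative, over all genes with Benjamini-Hochberg adjustment at 0.05. An SE is the log2 fold change divided by the square root of F. On simulated data with changed genes, the diet test recovered 72.8% of 2-fold and 98.8% of 4-fold changes in neurons, 81.2% and 94.9% in Slc17a6-high neurons, 74.3% and 100% in Slc32a1-high neurons, 83.8% and 100% in oligodendrocytes and 96.9% and 100% in microglia. Of the calls made there, 6.15% were false in neurons, 8.33% in Slc17a6-high neurons, 2.81% in Slc32a1-high neurons, 5.15% in oligodendrocytes and 2.96% in microglia, so the 5% level was passed in 3 of these 5. Each simulation changed many genes at once, which eases passing after adjustment, while the data gave 0 calls in each group by edgeR. In neurons 114 of 10383 genes changed 2-fold and 86 4-fold. The microglia simulation changed 97 of 523 genes 2-fold and 103 4-fold, a large share. Apoe, the only member tested in microglia, had an SE of 0.82 in the data. The recovered shares therefore do not show that a 2-fold change in Apoe, or in another member, would be found. No change under 2-fold was simulated, and neither astrocytes nor endothelial cells were simulated. Intervals of counting error are not given, and the number of UMIs limits the low genes. The mice were numbered within a diet in the order listed.

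The 10 genes, the lists, the markers and the 3 mice set apart were chosen with earlier results of these data known. The rule for names takes all members in every class, per other list the 2 genes with the smallest p, and per member the 3 genes nearest in correlation among those with at least 500 UMIs. Promoters are from RefSeq. 2 genes that this rule names are not reported here.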

Additional observations from a re-analysis of the deposited data

Results flagged for a closer look

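Within a diet, the highest mouse lay far from the next in 9 of 72 groups of mice examined, over the members tested for diet, by Dixon's criterion at 95%. Chance gives about 1 in 20 groups where values are normal and groups independent. These groups share mice and cells, and several of the values rest on few UMIs. The 9 of 72 can therefore not be read as more than chance gives. In high fat diet replicate 7, which had 12 neurons, Apoe stood at 451 CPM from 18 UMIs and Fabp3 at 201 CPM from 8 UMIs in neurons, against at most 63.3 and 109 CPM in the other high fat diet mice. In control replicate 7, Apoe stood at 169 CPM in neurons, against at most 86.7 CPM in the other control mice, and Fabp5 at 167 CPM in Slc17a6-high neurons, against at most 97.2 CPM. Fabp3 in Slc17a6-high neurons stood at 194 CPM in control replicate 6, from 22 UMIs, against at most 120.3 CPM. In oligodendrocytes Scd1 stood at 208 CPM in high fat diet replicate 1, against at most 155 CPM, and Elovl4 at 36.2 CPM in control replicate 1, from 16 UMIs, against at most 24.1 CPM. Apoe in microglia of control replicate 4 stood at 2361 CPM, against at most 600.2 CPM in the other control mice, and 106 of its 153 UMIs lay in 1 cell. Scd2 in endothelial cells of control replicate 2 stood at 455 CPM, against at most 219 CPM in the other control mice.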

How the results depend on the processing

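The diet count of 0 members held in each of the 7 cell groups under DESeq2, RLE factors, no filter, no pool term, kept doublets, cells of at least 1000 UMIs, mice with at least 20 cells, either pool, leaving out the 3 mice or each mouse, and cluster 8 counted as oligodendrocytes (chosen after seeing the data), wherever a fit could be made, with 1 exception: in pool 2 alone 1 member, Fabp7 in astrocytes, passed. Over all genes, where the count was 0, no filter gave 42 calls in neurons, 59 in endothelial cells, 8 in Slc32a1-high neurons and 1 each in microglia and Slc17a6-high neurons. In endothelial cells DESeq2 gave 10, pool 1 alone 17, pool 2 alone 4, leaving out the 3 mice 2 and cells of at least 1000 UMIs 1. Pool 2 alone gave 9 in microglia and 1 in astrocytes, of 2256 genes tested there. DESeq2 and kept doublets gave 2 each in Slc32a1-high neurons, where no pool term and cells of at least 1000 UMIs gave 1 each. The interaction count stayed at 0 leaving out each mouse. Of 360 alternative log2 fold changes for diet, 36 had the other sign, and of 474 that left out a mouse, 48. Of the 44 class contrasts called, 36 held under every alternative. The 8 others were Fabp7 in neurons over microglia and over endothelial cells, Clu and Scd2 in neurons over endothelial cells, Scd2 in microglia over endothelial cells, and Npc1 in neurons, astrocytes and microglia over endothelial cells. Apoe in microglia over endothelial cells, not called in the report, passed under 6 alternatives. Counts rose where more than 5 members could be tested: 78 of 100 with no filter, 70 of 90 in control mice alone, 71 of 100 in cells of at least 1000 UMIs, and 77 of 100 by the exact test with either pseudocount, 10 or 1. With the pseudocount of 1 Fabp7 turned to 0.52 in neurons over microglia and 0.16 over endothelial cells, where it rests on 3 and 4 UMIs, and in high fat diet mice alone Scd2 in neurons over endothelial cells was −0.035. The cause of the last was not tested. No paired analysis was possible because the replicate numbers follow the order of listing and pair nothing. Depth limits astrocytes, microglia and endothelial cells, where 1 to 4 members could be tested for diet.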
